A study of Mus musculus with 96 samples.

Results

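The non-neuronal H3K27me3 profile of 3 DNA glycosylase knockouts was compared with that of wild type (WT), and the genes of the peaks that were higher or lower in all 3 knockouts are described here. H3K27me3 is histone H3 trimethylated at lysine 27. The members were all 1695 consensus peaks of the H3K27me3 table of NeuN- nuclei outside a region of chromosome 2 whose 3 further peaks lie at chr2:98662501-98667360. The tables of all antibodies and fractions held 22815 peaks. Mice of 4 genotypes on a C57BL/6N background were used, namely WT, the single knockouts Mutyh-/- and Ogg1-/-, and mice without either gene (DKO), all 6-month-old males. Hippocampi of several animals of a genotype were pooled, nuclei were sorted on NeuN (a neuronal nuclear protein), and chromatin immunoprecipitation with sequencing gave 3 libraries per genotype and 12 of the 72 libraries with a column in the tables. No cell type-specific driver is named for the knockouts, and NeuN- nuclei are a mixture of glial, vascular and other cells. A p-value of the main test is set against the spread between pooled preparations, not animals. That spread was taken from a trend over all peaks and not from the single peak. Fewer cells of a type cannot be told apart from less of the mark per cell.

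Ogg1 and Mutyh encode DNA glycosylases that act on the oxidised base 8-oxoguanine. Ogg1 removes it where it pairs with cytosine, and Mutyh removes an adenine that was placed opposite it. H3K27me3 is laid down by Polycomb repressive complex 2 (PRC2), which holds the methyltransferase Ezh2 or Ezh1 with Eed and Suz12, and it marks genes that are kept silent. In adult brain its best known targets are CpG-rich promoters of developmental transcription factors, which code for fates that the cell has not taken. H3K4me3 marks active promoters, and a promoter with both marks is called bivalent.

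Of the 1695 peaks, 810 were annotated as promoter (within 2 kb of a transcription start) and 885 as other, of which 453 were distal intergenic and 308 intronic. Values are the deposited signal, that is reads over a 401 bp window divided by a factor for each library, and whole reads were recovered from it and are given as reads. Fold changes are differences of log2(signal + 1), which understates changes at low values. A peak was called where limma gave p under 0.05 before adjustment and the log2 fold change was past 0.5 in either direction, the limits of the study for a differentially enriched region. A peak was taken as common to the knockouts when its log2 fold change was past 0.5 with one sign in Mutyh-/-, Ogg1-/- and DKO and the mean of the 3 knockouts differed from WT at p under 0.05. The 3 contrasts share the WT libraries, so that moving alike is in part given by the design. The adjusted p of the mean contrast was 0.995 at each common peak and no lower at any other. Values below are given with their standard errors (SE) and with the calls by these limits, none of which passed the adjustment.

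Promoter peaks that were higher in all 3 knockouts lay in sequences of quite different make-up, and 4 of them are shown with the lower peak of smallest p. Letters are the + strand of GRCm38, 5′ to 3′, with CG dinucleotides in capitals; for Spint1 the stretch past the annotated 5′ UTR is given, and for the others the central 300 bases of the peak. The 5 were chosen after their values had been seen.
Spint1, chr2:119237787-119237971: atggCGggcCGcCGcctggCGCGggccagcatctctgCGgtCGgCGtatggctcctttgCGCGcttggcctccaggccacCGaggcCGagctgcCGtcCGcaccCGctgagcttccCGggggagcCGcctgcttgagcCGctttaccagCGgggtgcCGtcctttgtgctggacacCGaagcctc
Vax1, chr19:59169616-59169915: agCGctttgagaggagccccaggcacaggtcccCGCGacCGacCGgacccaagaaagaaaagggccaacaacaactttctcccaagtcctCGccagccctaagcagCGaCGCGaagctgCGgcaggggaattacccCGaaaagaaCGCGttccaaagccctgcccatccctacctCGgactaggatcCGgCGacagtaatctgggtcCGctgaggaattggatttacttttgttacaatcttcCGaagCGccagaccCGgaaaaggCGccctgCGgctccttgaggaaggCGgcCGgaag
Isl1, chr13:116305590-116305889: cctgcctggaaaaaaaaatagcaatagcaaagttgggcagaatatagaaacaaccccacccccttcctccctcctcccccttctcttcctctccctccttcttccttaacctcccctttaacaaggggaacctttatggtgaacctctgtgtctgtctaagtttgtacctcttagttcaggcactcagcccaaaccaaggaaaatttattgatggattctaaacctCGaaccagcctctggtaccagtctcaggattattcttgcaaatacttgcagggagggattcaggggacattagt
Chat, chr14:32461241-32461540: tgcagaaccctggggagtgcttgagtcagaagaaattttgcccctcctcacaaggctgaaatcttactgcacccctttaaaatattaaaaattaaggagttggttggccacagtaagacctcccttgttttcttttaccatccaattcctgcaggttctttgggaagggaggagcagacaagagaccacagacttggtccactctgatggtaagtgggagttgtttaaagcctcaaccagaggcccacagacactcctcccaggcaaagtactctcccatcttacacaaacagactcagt
Gm17019, chr5:15006642-15006941: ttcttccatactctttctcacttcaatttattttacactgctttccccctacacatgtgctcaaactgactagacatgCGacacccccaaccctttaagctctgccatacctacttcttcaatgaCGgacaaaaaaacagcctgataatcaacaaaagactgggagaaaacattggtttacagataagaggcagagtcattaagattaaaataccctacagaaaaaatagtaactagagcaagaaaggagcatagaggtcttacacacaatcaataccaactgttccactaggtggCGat
The Spint1 stretch of 185 bases held 21 CG dinucleotides and the Vax1 window 24. Only 1 stood in the Isl1 window and 0 in the Chat window, although both were annotated within 1 kb of a start site. The Gm17019 window, from an intergenic peak that was lower in the knockouts, held 3. Over the peaks, the ratio of observed to expected CG had a median of 0.565 in the 26 common higher promoter peaks against 0.546 in all promoter peaks, and of 0.247 in the 32 common higher other peaks against 0.235 in all other peaks. GC content was likewise close, with 58.9% against 58.0% for promoters and 49.1% against 49.6% for other peaks.

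Libraries of the same genotype differed from each other. Reads outside the chromosome 2 region ranged from 7654 to 23715 per library, the median reads per peak from 1 to 8, and the share of peaks without a read from 6.14% to 40.9%. The chromosome 2 region itself took between 20.6% and 80.3% of the reads in peaks. Promoter signal on the log2(signal + 1) scale had a mean of 3.34 in Mutyh-/- library 1, 3.24 and 3.003 in Ogg1-/- libraries 1 and 3, and 3.21 and 2.62 in DKO libraries 1 and 3. In WT it lay between 1.59 and 2.26, and in the remaining 4 knockout libraries between 1.29 and 1.76, so that high and low libraries stood within each knockout. The share of reads at promoters moved with it, from 17.6% to 54.9%. It also went with the library number, over all genotypes. The share was 47.0% to 54.9% in libraries numbered 1, 17.6% to 32.6% in those numbered 2 and 31.9% to 48.2% in those numbered 3. Precision is therefore low, and counting error alone is large at most peaks.

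**Figure D1:**
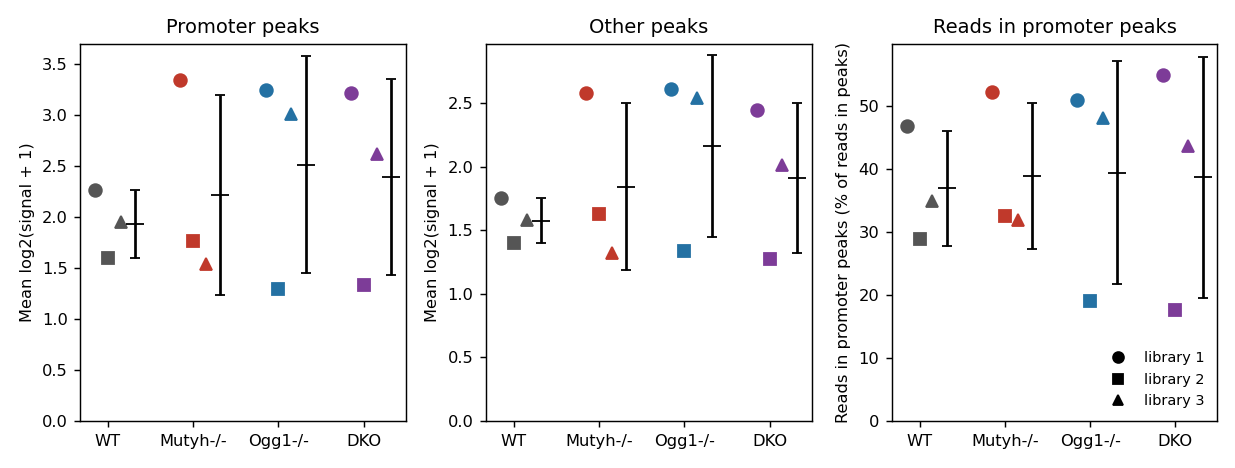
Each point is 1 H3K27me3 NeuN- library by genotype, with the replicate number; the axes give the mean promoter and other signal as log2(signal + 1) and the depth measures named on them. Promoter levels run from 1.29 to 3.34 in the knockouts, on both sides of the 3 WT libraries at 1.59 to 2.26.

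Over all promoter peaks the level was 2.37 ± 0.879 (SD, n = 9) in the knockout libraries and 1.93 ± 0.332 (n = 3) in WT, a difference of 0.44 on the log2 scale (two-sided exact permutation test over 220 splits, p = 0.427). Other peaks gave 1.97 ± 0.587 against 1.58 ± 0.177, a difference of 0.40 (exact permutation p = 0.318). The promoter level minus the other level was 0.40 in the knockouts and 0.36 in WT (exact permutation p = 0.850). None of the 12 level tests, which include each knockout on its own, had a Benjamini-Hochberg adjusted p below 0.982; a test of 3 libraries against 3 cannot go below 0.1. With the libraries centred on their medians the promoter difference was 0.27 with an exact permutation p of 0.0318.

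Single peaks were called more often in the higher direction. Of 1695 peaks, 33 were called in Mutyh-/- (1.95%), 70 in Ogg1-/- (4.13%) and 37 in DKO (2.18%), and 29, 63 and 32 of these were higher than WT. The mean of the 3 knockouts differed from WT at 65 peaks (3.83%), of which 59 were higher (3.48%). After adjustment over all peaks, limma called 0 in each of the 4 contrasts, with smallest adjusted p of 0.998, 0.958, 0.9995 and 0.995 for Mutyh-/-, Ogg1-/-, DKO and their mean. edgeR called 1 peak in DKO and 1 in the mean, and DESeq2 1 in each of the same contrasts. The variance of each peak was set by the trend over all peaks, and the scatter of the libraries at one peak was therefore not used in testing it.

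The excess of higher peaks depended on the scaling, and it turned to an excess of lower peaks after loess. Over all peaks the median log2 fold change was 0.29, 0.58 and 0.41 in Mutyh-/-, Ogg1-/- and DKO and 0.40 for their mean, so that most peaks were a little higher in the deposited values. With TMM factors the median of the mean contrast was 0.14, with total reads in these peaks 0.07, with median centring 0.23 and after cyclic loess -0.05. Of the peaks called for the mean contrast, 90.8% were higher in the deposited values, 74.4% with TMM factors, 68.6% with total reads, 70.7% in edgeR, 62.8% in DESeq2 and 40.2% after loess. In Mutyh-/- the higher share went from 87.9% to 55.6% with TMM factors, 53.3% with total reads, 66.2% in edgeR, 60.6% in DESeq2 and 43.2% after loess. In Ogg1-/- it went from 90.0% to 80.0%, 67.9%, 74.3%, 63.0% and 32.4%, and in DKO from 86.5% to 74.1%, 61.0%, 76.1%, 56.5% and 41.5%, in the same order. With median centring the higher share was 84.8% for the mean contrast and 85.6%, 78.6% and 75.4% in Mutyh-/-, Ogg1-/- and DKO.

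Changes common to the 3 knockouts were found at 64 peaks, 58 of them higher (3.42% of all peaks) and 6 lower (0.354%). Past the fold limit alone, 23.1% of all peaks were higher and 3.66% lower in all 3. The 58 higher peaks comprised 26 at promoters and 32 elsewhere, and their nearest genes include homeodomain factors (Vax1, Dmbx1, Isl1, Dbx2, Uncx), cadherins (Cdh23, Cdh22) and signalling genes (Ephb4, Wnt6, Acvrl1). In the gene lists described below, 2.66% of 188 homeodomain peaks and 2.04% of 49 Wnt, Bmp, Hedgehog and Fgf peaks were common and higher. Both shares are below that of all peaks. Axon guidance genes, with Ephb4, had 5.00% of 20 peaks and cadherins 18.8% of 16. The 6 lower peaks all lay outside promoters. Median log2 fold changes of the 58 were 1.90, 2.301 and 2.01 in Mutyh-/-, Ogg1-/- and DKO. Just inside the limit of 0.05 stood Ets1 with an unadjusted limma p of 0.0492, Evpl with 0.0492 and Acp5 with 0.0497, and just outside it Wnt9b with 0.0503, Cilp2 with 0.0505 and Skap1 with 0.0506. Their log2 fold changes, 1.75 to 1.86 inside and 1.74 to 1.82 outside, were as close.

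Few WT reads stood behind these peaks. In 29 of the 58 (50.0%) all 3 WT libraries had 0 reads, against 71 of all 1695 peaks (4.19%), and in 46 of the 58 they had 3 reads or fewer in sum, against 318 of all peaks. A peak without WT reads can only be level or higher in the knockouts, so the direction of these 29 was fixed by their being in the peak table. Of the other common peaks 29 were higher and 6 lower. Peaks with few WT reads may also have entered the table through the knockout libraries, which outnumber those of WT, so these counts are not free of that choice. Where WT had 0 reads, 3 reads over its libraries were taken as the upper limit that this count allows, and the fold is given as a lower bound. On that scale of read rates the 58 had a median knockout to WT ratio of 4.92, with 29 of them at the lower bound, and all peaks a median of 1.62. The mean reads per peak of the 58, with a median of 4.58, were like those of all peaks, 4.42. Repeats covered at least 50% of 4 of the 58 peaks and of 93 of all (5.49%).

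Complete separation of the 9 knockout libraries from the 3 WT libraries was rarer. All 9 stood above WT at 8 peaks (0.472%), of which 6 were among the 58, near Chat, Paupar, Nags, Prkab1, Cdh23 and Tbx5; Aida and Helt were the other 2, named after their values had been seen. All 9 stood below WT at 1 peak (0.059%), in an intron of Prdm16. Among the knockouts themselves, 20 peaks differed by the F test of limma at an unadjusted p under 0.05 (1.18%) and 0 after adjustment.

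At promoters the smallest p of the mean contrast belonged to Spint1, which encodes a Kunitz-type inhibitor of serine proteases. Its peak at chr2:119237571-119237971 covers the first exon and 5′ UTR. The 3 WT libraries had 0, 0 and 0 reads there, the Mutyh-/- libraries 16, 1 and 4, the Ogg1-/- libraries 24, 2 and 12 and the DKO libraries 21, 0 and 19. Signal was 0 in WT, 7.02 ± 7.45 in Mutyh-/-, 12.3 ± 9.85 in Ogg1-/- and 13.3 ± 11.6 in DKO (SD, n = 3 each). All knockout libraries but DKO 2 were above WT, and library 2 was the lowest of each knockout. Read rates were at least 10.2-fold higher, with a log2 fold change of 2.90 (SE 0.94, limma, adjusted p = 0.995), and the peak was called in each knockout on its own.

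Rasgef1a, which encodes an exchange factor for Ras-type GTPases, had a promoter peak at chr6:118011634-118012034. Reads were 0, 3 and 0 in WT, 23, 4 and 4 in Mutyh-/-, 17, 9 and 14 in Ogg1-/- and 24, 2 and 7 in DKO. Only DKO library 2 lay below the highest WT library. Signal was 0.829 ± 1.44 in WT against 10.3 ± 10.2, 12.98 ± 4.96 and 10.2 ± 9.68, and the ratio of read rates was 10.7 (95% exact counting interval 3.56 to 52.7; log2 fold change 2.70, SE 0.91). A further peak with Rasgef1a as nearest gene, which lies in an exon of the gene model Gm4875 at chr6:117996911-117997311, was also common to the knockouts (log2 fold change 2.29, SE 0.93). Its reads were 0, 3 and 0 in WT and 22, 10, 1, 7, 10, 6, 21, 3 and 2 in the knockouts. Both of the 2 peaks assigned to Rasgef1a thus met the limits.

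Ephb4, a receptor tyrosine kinase for ephrin-B ligands on vessel cells, had 0 reads in all WT libraries at chr5:137349769-137350169. It had 8, 5 and 0 reads in Mutyh-/-, 5, 6 and 14 in Ogg1-/- and 20, 2 and 5 in DKO. Signal was 4.32 ± 3.93, 8.66 ± 6.96 and 8.29 ± 8.07, with Mutyh-/- library 3 level with WT (at least 6.68-fold higher; log2 fold change 2.59, SE 0.95).

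Next in order came Vax1, a homeodomain factor of the ventral forebrain and eye (log2 fold change 2.41, SE 0.92). Chat followed, the enzyme that makes acetylcholine (2.47, SE 0.95), with reads of 3, 10 and 3 in Mutyh-/-, 5, 2 and 10 in Ogg1-/- and 3, 6 and 4 in DKO against 0 in WT. It was called in each knockout and separated all 9 libraries from WT. Dmbx1, a midbrain homeodomain factor, had a log2 fold change of 2.28 (SE 0.91), and Paupar, a long non-coding RNA beside Pax6, 2.34 (SE 0.94). Paupar is the 1 promoter gene of the 26 whose peak did not overlap the gene itself in GENCODE M21, but Pax6os1. Isl1, a LIM homeodomain factor of motor and striatal neurons, had 2.303 (SE 0.95), and L3mbtl4 and Fbll1 had 2.16 and 2.14 (SE 0.94 each). Other promoters of the 26 belong to Reln, which encodes a secreted guidance protein of layered brain regions, Bcl11b and Nr5a2, both transcription factors, and Shank1, a postsynaptic scaffold.

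Leaving out libraries bore on these calls to different degrees. Spint1, the Rasgef1a promoter, Ephb4, Chat and Isl1 kept their call by limma without any 1 of the 12 libraries. At Spint1, Ephb4, Chat and Isl1 every WT library had 0 reads. Leaving out a WT library could therefore not change their fold change, and keeping the call there is no sign of robustness. Vax1 and Paupar lost it without WT library 2 or 3, Dmbx1 without WT library 1, L3mbtl4 without WT library 1 or 2, and Fbll1 without WT library 1 or 2 or Ogg1-/- library 1 or 3.

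**Figure D2:**
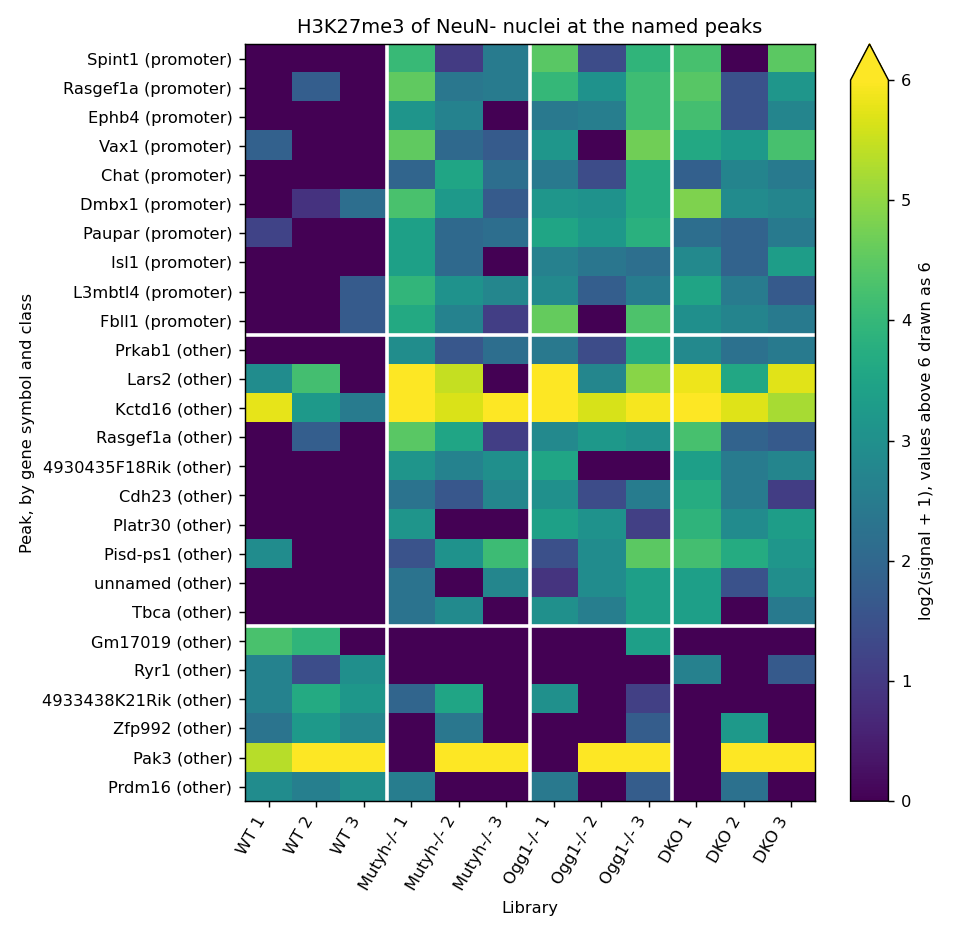
Signal of each of the 12 libraries at named common peaks, on the scale labelled in the figure. At Spint1, Ephb4 and Prkab1 all 3 WT libraries are at 0, and at Gm17019 8 of the 9 knockout libraries are at 0.

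Outside promoters, gene assignments are looser: of the 38 common peaks there, 13 overlapped the gene they were assigned to in GENCODE M21 and 18 overlapped no gene. The first by p was assigned to Prkab1, a regulatory subunit of the AMP-activated kinase, but lies in the 3′ UTR of Tmem233 at chr5:116040140-116040540. Reads were 0 in the WT libraries, 7, 2 and 3 in Mutyh-/-, 5, 2 and 10 in Ogg1-/- and 7, 4 and 4 in DKO. All 9 knockout libraries were above WT, with a signal of 4.10 ± 2.37, 5.98 ± 5.33 and 4.77 ± 1.20 (at least 4.52-fold higher; log2 fold change 2.42, SE 0.95).

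Lars2, the mitochondrial leucyl-tRNA synthetase, had a peak in its 3′ UTR at chr9:123461814-123462214. WT libraries had 5, 21 and 0 reads, Mutyh-/- 68, 41 and 0, Ogg1-/- 104, 7 and 25 and DKO 65, 12 and 46. The groups overlapped, with Mutyh-/- library 3 at 0 and 2 further knockout libraries below WT library 2. Signal was 8.01 ± 8.79 in WT and 36.2 ± 33.2, 42.2 ± 44.1 and 39.9 ± 25.0 in the knockouts (ratio of read rates 4.37, counting interval 2.93 to 6.77; log2 fold change 2.17, SE 0.86). Without WT library 3 its log2 fold change was 0.98, and the call was lost.

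Kctd16, an auxiliary subunit of GABA-B receptors, had the deepest of the common higher peaks given in full, in its intron at chr18:40308037-40308437. Reads were 41, 10 and 4 in WT, 104, 47 and 56 in Mutyh-/-, 92, 60 and 50 in Ogg1-/- and 75, 55 and 32 in DKO. WT library 1 stood within the knockouts and the other WT libraries below all of them. Signal was 22.4 ± 27.7 in WT, 71.4 ± 25.8 in Mutyh-/-, 63.1 ± 16.1 in Ogg1-/- and 50.7 ± 14.4 in DKO (ratio 3.20, counting interval 2.43 to 4.30; log2 fold change 2.08, SE 0.83). The log2 fold change was 1.78 without WT library 2 and 1.41 without WT library 3, and the call was lost in either case.

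Of the remaining common higher peaks outside promoters, the next by p lay near 4930435F18Rik (log2 fold change 2.32), in intron 8 of Cdh23 (2.32), near Platr30 (2.32), near Pisd-ps1 (2.21), near no named gene at chr5:119547553-119547953 (2.24) and near Tbca (2.22). Cdh23 encodes a cadherin of hair-cell tip links. Its peak had 4, 2, 5, 8, 2, 4, 14, 5 and 1 reads in the knockouts against 0 in WT, and intron 2 of the gene held a further common peak (log2 fold change 1.89), which makes 2 of its 7 peaks. The Pisd-ps1 peak was 62.8% repeat-masked, and its call was lost without WT library 2 or 3.

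Common lower peaks were few, and 5 of the 6 had few reads, the sixth being that near Pak3. Gm17019, a predicted gene, was the nearest to an intergenic peak at chr5:15006592-15006992 with 14, 17 and 0 reads in WT, 0 in Mutyh-/- and DKO and 0, 0 and 8 in Ogg1-/-. WT library 3 was level with the 8 knockout libraries at 0. Signal was 10.9 ± 9.68 in WT and 3.18 ± 5.51 in Ogg1-/- (ratio of knockout to WT read rates 0.0796, counting interval 0.0316 to 0.177; log2 fold change -2.36, SE 0.81). edgeR gave this peak an adjusted p of 0.0182 for the mean contrast, DESeq2 an unadjusted p of 0.144, and limma without WT library 1 one of 0.0647.

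Ryr1, the calcium release channel of skeletal muscle, had 4, 2 and 6 WT reads in an exon at chr7:29054653-29055053. Reads were 0 in all Mutyh-/- and Ogg1-/- libraries and 6, 0 and 2 in DKO, which overlapped WT (signal 4.62 ± 2.69 in WT and 2.49 ± 2.61 in DKO; log2 fold change -1.87, SE 0.80). A peak assigned to 4933438K21Rik at chr4:147236466-147236866, which was 61.1% repeat-masked, had 4, 14 and 7 reads in WT, 3, 10 and 0 in Mutyh-/-, 8, 0 and 1 in Ogg1-/- and 0 in DKO. DKO alone was clear of WT there (signal 8.33 ± 3.17 in WT, 4.48 ± 5.46 in Mutyh-/- and 2.74 ± 3.75 in Ogg1-/-; log2 fold change -2.09, SE 0.94).

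Zfp992 (log2 fold change -1.94) and Prdm16 (-1.84) held the next lower peaks, both in introns. Prdm16 encodes a zinc finger factor without a homeodomain, which the symbol pattern of the homeodomain list below also takes in. Leaving out 1 library took the call from Zfp992 in 7 and from Prdm16 in 8 of 12 cases. The peak near Pak3 on chromosome X had 30, 682 and 385 reads in WT and 0, 470, 475, 0, 1345, 118, 0, 1383 and 388 in the knockouts. Library 1 of each knockout had 0 reads, and in signal Ogg1-/- library 2 and DKO library 2 alone exceeded the highest WT library. The ratio of knockout to WT read rates was 1.18, and the log2 fold change of -1.72 in limma became 0.50 in edgeR and 0.55 in DESeq2. The call was also lost with median centring, with a pseudocount of 5 and with robust empirical Bayes.

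**Figure D3:**
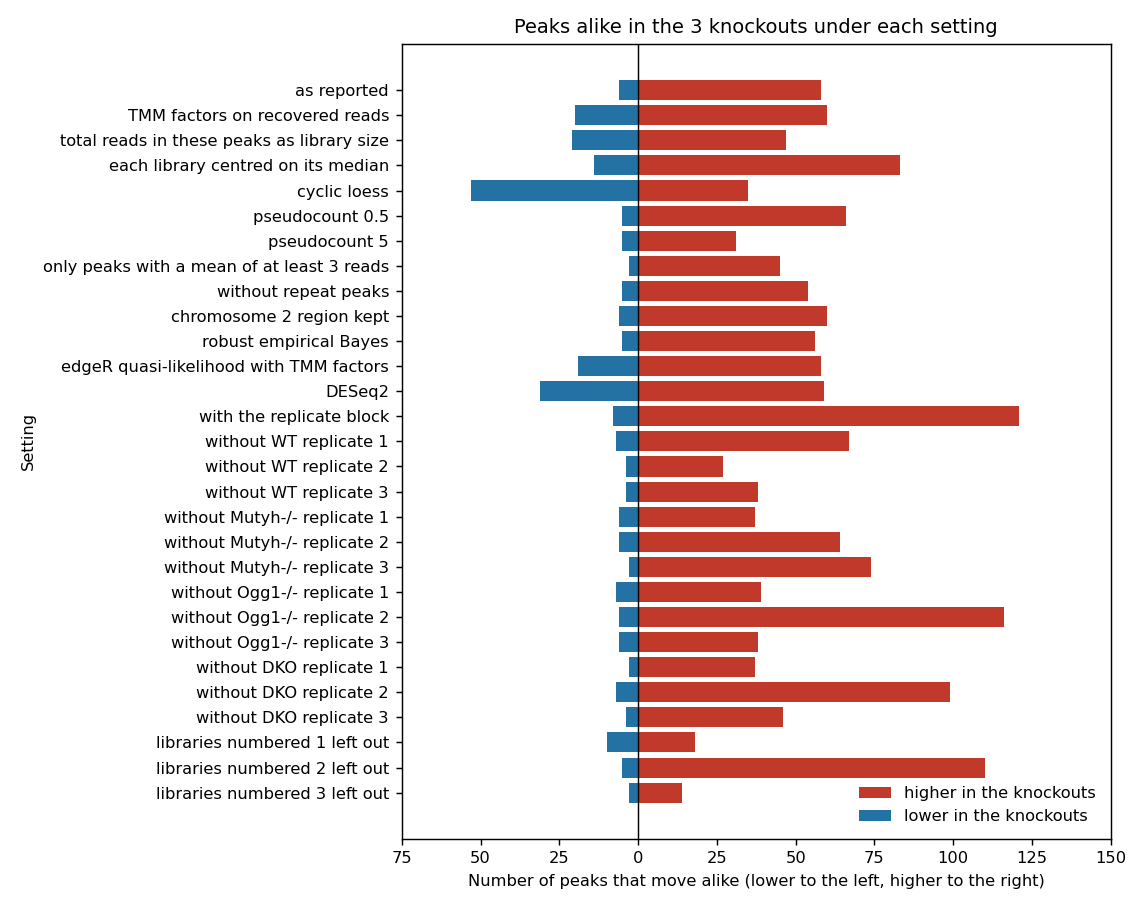
Common peaks under each setting, split by direction, with the settings on one axis and the number of peaks on the other. The deposited values give 58 higher and 6 lower, TMM factors 60 and 20, and loess 35 and 53.

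Common promoter and other peaks were still mostly higher with TMM factors, total reads and median centring, but more of them were lower after loess. The 26 higher and 0 lower common promoter peaks became 25 and 7 with TMM factors, 18 and 7 with total reads, 47 and 6 with median centring and 19 and 22 after loess. Other peaks went from 32 higher and 6 lower to 35 and 13, 29 and 14, 36 and 8, and 16 and 31. Of the 64 peaks, 56 were common under TMM factors, 53 with total reads, 55 with median centring, 35 after loess, 45 in edgeR and 52 in DESeq2. Fewer were kept when 1 WT library was left out: 26 without WT library 1, 24 without WT library 2 and 18 without WT library 3.

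Libraries of one number were left out together, an alternative added after the depth differences had been seen. Without the 4 libraries numbered 1, 28 peaks were common, 18 of them higher and 14 shared with the 64. Without those numbered 2, 115 were common, 110 higher and 42 shared, and without those numbered 3, 17, 14 and 13. Of single libraries, leaving out WT 2, WT 3 or DKO 1 left 31, 42 or 40 common peaks (27, 38 and 37 higher), and leaving out Ogg1-/- 2 or DKO 2 gave 122 or 106 (116 and 99 higher). Calls in Ogg1-/- went from 70 to 184 without its library 2, to 37 without its library 1 and to 36 without its library 3, those in DKO to 93 without its library 2 and to 22 without its library 1, those in Mutyh-/- to 65 without its library 3, and those in Ogg1-/- to 42 without WT library 2. The direction in Mutyh-/- rested on its library 1: without it 13 of 44 called peaks were higher (29.5%), against 29 of 33 with it (87.9%), and without all libraries numbered 1 it was 9 of 24. The part of depth in these counts was not tested.

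Gene lists, which were chosen with earlier results of these data known, held common higher peaks in shares of 0% to 18.8%, beside 3.42% of all peaks. Medians below are of the mean contrast in limma and stand beside 0.40 for all peaks, values in parentheses after a gene are its log2 fold change in that contrast, with SE of 0.80 to 0.95 over the genes named, and no member of any list had an adjusted p under 0.05. Homeodomain factors outside the Hox clusters set up regional identity in the embryo. They had 188 peaks, of which 5 were common and higher (2.66%) and 1 was lower, with a median log2 fold change of 0.24. Vax1, Dmbx1 and Isl1 are given above. Uncx had 4, 0 and 0 reads in WT and 6, 3, 8, 18, 6, 12, 11, 3 and 4 in the knockouts (log2 fold change 2.06), at a distal peak. In TMM-scaled values the list's median was -0.01, with total reads -0.12 and after loess -0.22, where 5 of its peaks were higher and 7 lower.

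Hox cluster genes, which pattern the body axis and the hindbrain, had 7 peaks and 0 common ones. Hoxb1 had the smallest p among them (log2 fold change 1.47; 0 reads in WT and 3, 4, 5, 2, 0, 0, 1, 6 and 1 in the knockouts). Hoxc4 (1.15), Hoxd12 (-0.49) and Hoxd3 (0.44) followed. None was called for the mean, and Hoxb1 was called in Mutyh-/- alone (2.37 there). Their median was 0.24 in the deposited values and -0.09, -0.17, 0.07 and -0.13 with TMM factors, total reads, median centring and loess.

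Other developmental transcription factors had 111 peaks, of which 2 were common and higher (1.80%), with a median of 0.43. Tbx5, a T-box factor of heart and forelimb, had 0, 1 and 0 WT reads and 5, 3, 1, 3, 7, 3, 6, 6 and 3 knockout reads (log2 fold change 1.93) at a peak that overlaps the gene model Gm38554. Gata2, a blood and interneuron factor, had 0 in WT and 6, 0, 2, 0, 9, 5, 12, 4 and 0 (1.79). Foxa1 (1.46) and the promoter of Twist2 (1.63) missed the limits for the mean, and Foxa1 was called in Ogg1-/- (2.48 there).

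Genes of the Wnt, Bmp, Hedgehog and Fgf pathways had 49 peaks and 1 common one (2.04%), at the promoter of the ligand Wnt6 (1.90; 1, 1 and 0 reads in WT and 12, 13, 0, 12, 9, 4, 17, 0 and 5 in the knockouts). The ligand Wnt9b (1.75), the Wnt inhibitor Sfrp5 (1.74) and the Wnt agonist Rspo4 (1.62) missed them for the mean. The list's median was 0.35, and -0.04 with total reads and -0.17 after loess.

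Ion channels and transmitter receptors had 62 peaks and 1 common one (1.61%), at the promoter of the cation channel Trpc4 (1.83; 5, 0 and 0 reads in WT). Next by p, but not called for the mean, stood the serotonin receptor Htr7 (1.80) and 2 peaks of the calcium channel Cacna1i (1.72 and 1.24). In single knockouts, Htr7 was called in Mutyh-/- and the second Cacna1i peak in Ogg1-/- (2.37 in either case). Their median of 0.32 was -0.02 with TMM factors, -0.10 with total reads and -0.08 after loess.

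Synaptic vesicle and scaffold genes had the highest median of the lists with more than 5 peaks, 0.76 over 41 peaks, and kept it above that of all peaks under each scaling (0.50 with TMM factors, 0.48 with total reads, 0.59 with median centring, 0.29 after loess). The axon guidance, cadherin, and glial and vascular lists below did so too, with medians after loess of 0.04, 0.11 and 0.62 beside -0.05 for all peaks. Still, 1 of the 41 was common (2.44%), at the promoter of Shank1 (1.92; 0, 0 and 4 reads in WT and 13, 4, 2, 11, 4, 7, 25, 3 and 2 in the knockouts). An exon peak of Shank1 (1.67), the promoter of Gad1, which makes GABA (1.68), and a peak of Shank2 (1.65) were not called for the mean, and that of Shank2 was called in Ogg1-/-.

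Axon guidance genes had 20 peaks, of which that of Ephb4 was common (5.00%), and a median of 0.46. Slit1 (1.58), Slit3 (1.27) and Unc5a (1.26) followed, without a call in any contrast. Cadherins and protocadherins, which hold cells together, had 16 peaks, of which 3 were common (18.8%), 2 in Cdh23 and 1 near Cdh22 (2.16; 0, 2 and 0 reads in WT and 13, 2, 5, 4, 1, 10, 7, 5 and 9 in the knockouts), and a median of 0.67. The promoter of Dchs2 had 1.84 and missed the limits for the mean. With TMM factors and total reads 3 of the 16 were common and higher, with median centring 4 and after loess 2, and 0 were lower.

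Genes of glial and vascular identity had 5 peaks, none of them common and all at promoters. Cldn5 of endothelial tight junctions (1.70), Pdgfra of oligodendrocyte precursors (1.16, at 1 of its 2 peaks), Sox9 of astrocytes (1.18) and Flt1 of endothelium (0.84) were not called for the mean, and the list had a median of 1.16. Cldn5 was called in DKO (2.43 there) and Sox9 in Ogg1-/- (2.17). Of the Polycomb genes, Jarid2 (0.79) and Cbx8 (0.08) had 1 peak each, and of the base excision repair genes Smug1 alone had one (1.42). Ogg1 and Mutyh had no H3K27me3 peak in NeuN- nuclei, so the values do not check the genotypes.

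**Figure D4:**
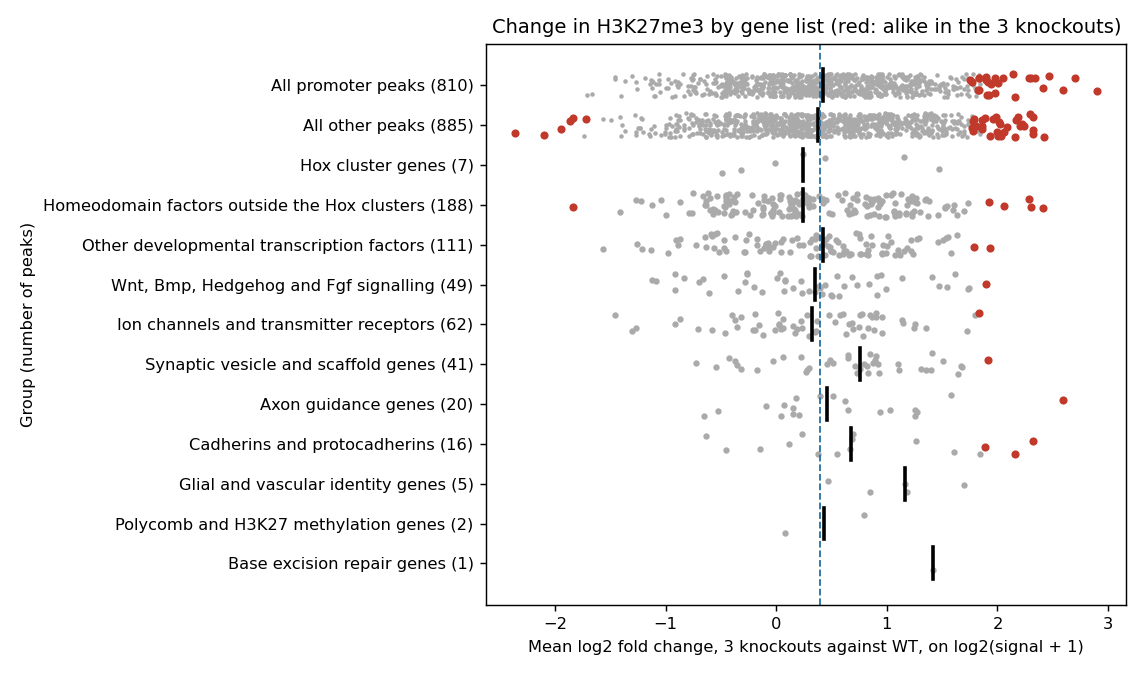
Log2 fold change of the mean of the 3 knockouts against WT for each peak of the gene lists, with common peaks marked and the median of each list drawn. Medians run from 0.24 (Hox cluster and homeodomain factors) to 0.76 (synaptic genes) among lists of 7 or more peaks, beside 0.40 for all peaks.

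Peaks of single knockouts were also found. An exon of Pebp4 at chr14:70045794-70046194, assigned to Egr3, had the smallest p in Mutyh-/- (reads 0, 0 and 0 in WT, 10, 8 and 4 in Mutyh-/-, 4, 0 and 2 in Ogg1-/- and 0, 0 and 1 in DKO). In signal every Mutyh-/- library was above every other library, with 7.56 ± 2.61 against 0 in WT (log2 fold change 3.05, SE 1.06, limma, adjusted p = 0.998). In Ogg1-/- an intron of the gene model Gm36560, assigned to Calcoco1 at chr15:102806436-102806836, had 9, 11 and 4 reads, against 0 in WT, 3, 0 and 0 in Mutyh-/- and 2, 0 and 0 in DKO. It was clear of all other libraries (7.22 ± 2.19 against 0 in WT, with a signal of 0.961 ± 1.66 in Mutyh-/-; limma, adjusted p = 0.958 in Ogg1-/-). Both peaks were among the 20 that differed between the knockouts in the F test.

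The DKO peak near Tmem125, at chr4:118548132-118548532, differed most among the knockouts, with the smallest p of the F test. Mutyh-/- had 4, 2 and 2 reads (signal 2.76 ± 0.947) and Ogg1-/- 33, 11 and 18 (19.8 ± 10.1), beside 14, 8 and 14 in WT (13.8 ± 6.30) and 0 in DKO. The log2 fold change was -1.89 in Mutyh-/-, 0.46 in Ogg1-/- and -3.77 in DKO (SE 1.13 each, limma), of which that of DKO was called. Every Mutyh-/- library lay below every WT library. Its adjusted p for DKO was 0.0280 with median centring, 0.00462 after loess and 0.00845 in edgeR, against 0.9995 in the deposited values. The peak lies 1.73 Mb from Mutyh, on the same chromosome, a check chosen after its values had been seen.

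Suz12 and H3K4me3 were measured in libraries of their own and did not enter the choice of peaks. The libraries of each antibody carry the same numbers and may come from the same pools, so like values between antibodies need not be independent. Of the 1695 peaks, 70 (4.13%) overlapped a Suz12 peak of NeuN- nuclei by at least 1 bp and 82 (4.84%) an H3K4me3 peak. Of the 58 common higher peaks, 4 overlapped Suz12 (6.90%), 0 of them at promoters, and 5 H3K4me3, and of the 6 lower peaks 3 overlapped each. Of all 308 Suz12 peaks, 23 were called for the mean of the knockouts (7.47%; 0 adjusted), and of H3K4me3 133 of 3266 (4.07%; 8 adjusted), with median log2 fold changes of 0.31 and 0.13. Among the overlapping peaks of the higher set, 2 of 4 were called in Suz12 and 2 of 5 in H3K4me3, and 0 of 3 in either for the lower set.

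Kctd16 was called in both tables. Its Suz12 signal was 22.2 ± 28.9 in WT, 63.3 ± 20.4 in Mutyh-/-, 69.6 ± 20.8 in Ogg1-/- and 39.0 ± 17.2 in DKO (log2 fold change 2.61, SE 0.74, limma, adjusted p = 0.140). Suz12 reads were 49, 14 and 0 in WT and 64, 127, 28, 101, 59, 44, 37, 63 and 22 in the knockouts, so that WT library 1 again stood within the knockouts. H3K4me3 signal was 20.7 ± 9.84 in WT and 67.3 ± 12.8, 57.6 ± 22.2 and 42.6 ± 8.55 in the knockouts, all 9 of which were above the 3 WT libraries (log2 fold change 1.42, SE 0.32, limma, adjusted p = 0.0103). All 3 antibodies had the order WT lowest and DKO lowest of the knockouts, at a window where each table had a peak within a few bases of the same position. The means of H3K27me3 in NeuN+ nuclei, given below, had the same order. Input libraries, made without an antibody, had no values for this window and were not compared.

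Lars2 was called in H3K4me3 (log2 fold change 2.40, SE 0.84, adjusted p = 0.702) and had -0.15 in Suz12 (SE 0.70, adjusted p = 0.973). Gm14496, an intergenic peak that was 83.0% repeat-masked, was called in Suz12 (2.13, SE 1.00, adjusted p = 0.567). Ndufb3 had -1.01 in Suz12 (adjusted p = 0.805) and 1.16 in H3K4me3, and the promoter of Reln 0.28 in H3K4me3, both with an adjusted p of 0.999 in limma. Of the lower set, Gm17019 had 1.22 in Suz12 (adjusted p = 0.793) and -0.46 in H3K4me3 (adjusted p = 0.999). Peaks in all 3 other tables stood over 46 of the 1695 peaks, 5 of them common (Ndufb3, Kctd16 and Lars2 higher, Zfp992 and Pak3 lower). These 46 had a median of 31.6 mean reads per peak against 4.42 over all peaks, and 6 were promoters.

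**Figure D5:**
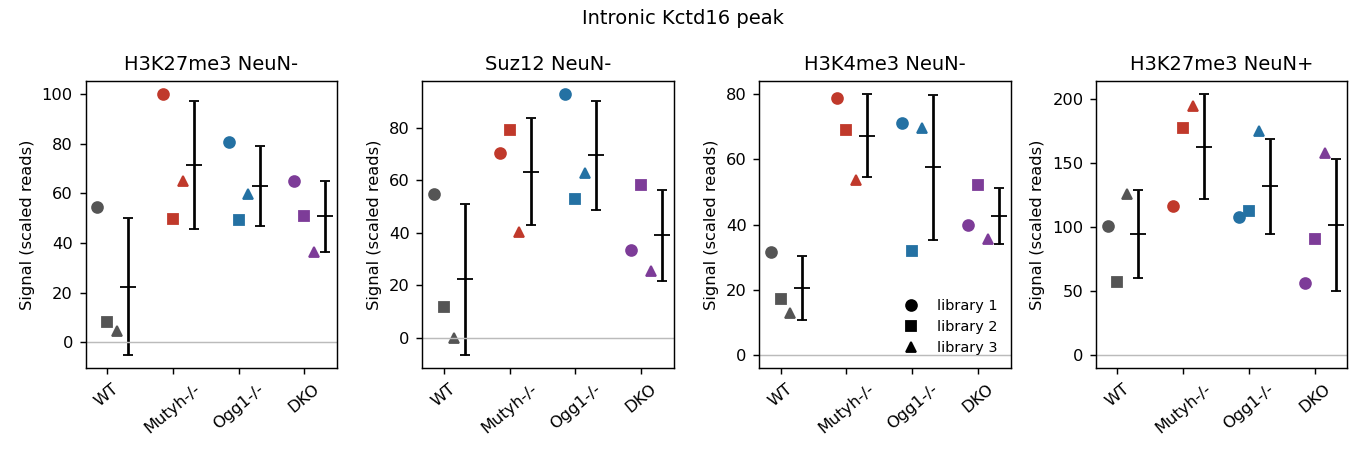
Signal at the Kctd16 peak for H3K27me3, Suz12 and H3K4me3 in NeuN- nuclei and H3K27me3 in NeuN+ nuclei, with 1 point per library and the mean and SD of 3 libraries per genotype. WT means are 22.4, 22.2, 20.7 and 94.7, and the Mutyh-/- means 71.4, 63.3, 67.3 and 162.8.

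In NeuN+ nuclei 144 of 4130 H3K27me3 peaks were called for the mean of the knockouts (3.49%; 2 adjusted), with a median log2 fold change of -0.12. Peaks of NeuN+ nuclei overlapped 247 of the 1695 (14.6%), 9 of the 58 and 2 of the 6. Of the 9, 1 was called, near Pisd-ps1 (log2 fold change 1.84, SE 0.88, limma, adjusted p = 0.972), where NeuN+ WT libraries had 0, 0 and 1 reads. Kctd16 had 94.7 ± 34.5 in WT, 162.8 ± 41.0 in Mutyh-/-, 131.9 ± 37.2 in Ogg1-/- and 102.0 ± 51.5 in DKO (log2 fold change 0.46, SE 0.41), and Lars2 had 0.08 (SE 0.44). Wnt6, Usp44 and Acvrl1, the common higher promoters of NeuN- nuclei with a NeuN+ peak, had -0.71 (SE 0.83), -1.04 (SE 0.69) and -0.10 (SE 0.79). A fit of 24 libraries over the 247 peaks gave 7 at which the common change differed between fractions at an unadjusted p under 0.05 and 0 after adjustment (smallest adjusted p 0.930, limma), with medians of 0.37 in NeuN- and -0.10 in NeuN+ nuclei.

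The sort was checked on marker genes. Of 8 neuronal markers, 0 had an H3K4me3 promoter peak in NeuN- nuclei and 6 in NeuN+ nuclei. H3K4me3 of NeuN- nuclei stood at Olig1 (1 of 8 oligodendrocyte markers) and Slc1a2 (1 of 7 astrocyte markers). In NeuN+ nuclei it stood at more of these glial markers, at Mbp and Cnp (2 of 8) and at Slc1a3, Slc1a2 and Sox9 (3 of 7). By H3K4me3 the glial markers thus did not separate the fractions as the neuronal ones did. The study had more H3K4me3 peaks in NeuN+ than in NeuN- nuclei, which was not allowed for. In either fraction H3K4me3 stood at 0 of 5 microglial and 0 of 4 endothelial and mural markers. H3K27me3 promoter peaks of NeuN- nuclei stood at the neuronal genes Rbfox3, Gad1 and Gad2, at Pdgfra, Sox9, Cldn5 and Flt1, and at no microglial marker. In NeuN+ nuclei H3K27me3 stood at Gad1, Gad2, Olig1, Olig2, Sox10, Pdgfra, Cldn5 and Flt1, and at no astrocyte or microglial marker. Its summed oligodendrocyte signal in WT was 28.5 to 50.8 there, and 1.15 to 4.15 in NeuN- nuclei, at Pdgfra alone. The summed neuronal H3K27me3 signal of NeuN- nuclei was 2.65 to 19.6 in WT, 4.22 to 53.8 in Mutyh-/-, 11.4 to 45.6 in Ogg1-/- and 18.5 to 41.6 in DKO, which overlap, and no marker peak was common to the knockouts. The part of cell composition in the results was not tested.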

How the data were processed

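H3K27me3 chromatin of NeuN- nuclei was precipitated from pooled hippocampi of the 4 genotypes and sequenced as single-end reads. Per the study's methods and the submitters' processing notes, the authors aligned reads with Bowtie2 2.3.5.1 to GRCm38, called enriched regions with epic2, counted reads over consensus peaks with DiffBind 3.10.1 and annotated them with ChIPseeker 1.36; the handling of duplicates is not given in the sources used here. Signal, the unit deposited by the authors, is the read number of a peak over a factor that is the same for all peaks of a library. Whole reads were recovered as the signal over that step (100% of values whole within 0.01), and reads in all peaks ranged from 19132 to 78250 per library. Counting intervals and floors cover counting error only.

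The main test was limma 3.58.1 with a trend, in R 4.3.3, on log2(signal + 1) of 12 libraries in one fit, with genotype as the only term. Adjusted p are Benjamini-Hochberg values over all 1695 peaks. Prior degrees of freedom were infinite. Alternatives were TMM factors, total reads, median centring, cyclic loess, other pseudocounts, a minimum of 3 mean reads, robust empirical Bayes, edgeR 4.0.16 and DESeq2 1.42.0 on the recovered reads, the replicate number as a block and leaving out libraries. The fit was tested on simulated data. Peak sequences were read from GRCm38, and gene positions from GENCODE M21.

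Peaks were named by the unadjusted p of the mean contrast among the common ones, up to 10 promoter and 10 other peaks per direction, with all libraries given for the first 3 of each class. From each gene list up to 4 members with the smallest p were named. The smallest p of each knockout, Ogg1 and Mutyh were also named. The members and lists were chosen with earlier results of these data known. Replicate numbers of the labels were not taken to pair libraries in the main fit. The correlations of same-numbered deviations from the genotype means were low, -0.00234 to 0.114. Most knockout libraries still correlated best with the WT library of their own number, and the labels do not say what the numbers stand for. With the number as a block, 129 peaks were common instead of 64. Columns of no sample numbered 0. The chromosome 2 region was left out for its share of reads.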

Additional observations from a re-analysis of the deposited data

How the results depend on the processing

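Counts below are of peaks called by the same limits, against 33 in Mutyh-/-, 70 in Ogg1-/-, 37 in DKO, 65 for their mean, 64 common to all 3 and 20 that differed among the knockouts (F test); the cause of each difference was not tested. TMM factors gave 81 in Mutyh-/- and 40 by the F test, and total reads 75 in Mutyh-/-. Median centring gave 104 in Mutyh-/-, 61 in DKO, 99 for the mean, 97 common and 42 by the F test, and loess 95 in Mutyh-/-, 65 in DKO and 60 by the F test. A pseudocount of 5 gave 43 for the mean and 36 common, and the minimum of 3 mean reads, which tests fewer peaks, 21 in Mutyh-/-, 46 in Ogg1-/- and 7 by the F test. edgeR gave 74, 67 and 33 and DESeq2 104, 69 and 58 for Mutyh-/-, DKO and the F test. Fitting only the libraries compared gave 13 by the F test, and no value for the mean and the common peaks, which need all libraries. With the replicate block the counts were 84, 135, 72, 132, 129 and 54 in the order of the first sentence, and 8 of the 9 knockout libraries correlated best with the WT library of their own number. Without the libraries numbered 1 (added after seeing the data), DKO had 23, the mean 28 and the common set 28; without those numbered 2 the counts were 53, 130, 82, 118 and 115 for the first 5; without those numbered 3, Ogg1-/- had 15, DKO 11, the mean 17, the common set 17 and the F test 6. Leaving out 1 library gave 26 to 65, 36 to 184, 22 to 93, 31 to 125, 31 to 122 and 10 to 62. The promoter minus other level, 0.04 higher in the knockouts, was -0.0072 with TMM factors (exact permutation p = 0.973), -0.018 with total reads (0.941), -0.043 without the libraries numbered 1 (0.893) and -0.0378 to 0.117 without 1 library. The other level was -0.094 after loess (exact permutation p = 0.405), and the promoter level 0.27 with median centring (0.0318). Pak3 was 0.499 in edgeR and 0.549 in DESeq2. Median reads per peak of 1 to 8 limit every value. In the main test no peak passed the adjustment, whatever its fold change, and the smallest change that could be detected was not tested.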

Other observations

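Peaks close to the targeted genes were counted after the Tmem125 values had been seen. Within 5 Mb of Mutyh (chr4:116807723-116819440 in GENCODE M21) lay 16 of the 212 H3K27me3 peaks of chromosome 4 in NeuN- nuclei. Of these, 0 were called in Mutyh-/-, 1 in Ogg1-/- and 2 in DKO, and 1 was common to the knockouts, at the promoter of Dmbx1, which lies 0.868 Mb from Mutyh. Within 5 Mb of Ogg1 (chr6:113326972-113335068) lay 4 of the 80 peaks of chromosome 6, near Oxtr, Rasgef1a and Ret. Of these, 2 were called in Mutyh-/-, 2 in Ogg1-/- and 1 in DKO, and 2 were common, both assigned to Rasgef1a. Over all peaks 1.95% were called in Mutyh-/-, 4.13% in Ogg1-/- and 2.18% in DKO, and 3.78% were common. No test was run on these counts, and their position was not set against the other chromosomes.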
